A study of Mus musculus with 4 samples.

Results

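Mast cells store chymases, tryptases and a carboxypeptidase in their granules, and the genes of these proteases, together with those of histamine synthesis, the IgE receptor and a lineage transcription factor, were followed across 4 arrays of mouse mammary tumours. The 9 genes are Cma1, Mcpt4, Tpsab1, Tpsb2, Cpa3, Hdc, Gata2, Fcer1a and Ms4a2, and every probe set that the platform's annotation assigns to one of them alone was taken. This gave 12 probe sets of the 20380 with 1 symbol, and 9 genes of 12393. Where a gene had several probe sets, the one with the highest mean signal stood for it, and the other was read beside it.

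Tumours arose in nulliparous female FVB mice after a subcutaneous injection of the progestin MP (15 mg) and 4 weekly gavages of the carcinogen DMBA (1 mg each), which all groups received. Wild-type (WT) mice were set beside littermates with the MMTV-PAX8PPARg transgene, a fusion of the transcription factor PAX8 with the nuclear receptor PPARg behind the mouse mammary tumour virus promoter, which drives expression mainly in mammary epithelium. The pellet under the skin contained placebo or 2.5 mg of RU486, the progesterone and glucocorticoid receptor antagonist mifepristone, and was renewed after 60 days. Genotype and pellet together make 4 groups, and each is 1 array of RNA pooled from 5 mice. No spread between mice can be computed, a difference between 2 arrays has no replicate check, and no neighbouring pair in an order of arrays can be called different beyond its error. Precision is limited by the number of arrays.

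Mast cells mature in tissues from blood-borne progenitors under the control of stem cell factor and its receptor Kit, and they are found in the mammary stroma and at the edge of many tumours. Cross-linking of IgE on the high-affinity receptor releases histamine and granule proteases, which are bound to the proteoglycan serglycin and can cleave extracellular matrix. The tumours were analysed as whole tissue, so fewer cells of a type and less RNA per cell cannot be told apart.

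Signals are the deposited linear values, and differences are in log2(signal + 16) after each array was centred on its median. A signal was taken as within the background range where it did not exceed the brightest of 27 bacterial control probe sets on its own array, which read 9.6 on WT placebo, 18.5 on WT RU486, 8.3 on PAX8PPARg placebo and 35.3 on PAX8PPARg RU486. Of the 12 probe sets, 7 were above that range on all 4 arrays. Over 18 spike-in probe sets, the median ratio to WT placebo was 1.59 on WT RU486, 1.00 on PAX8PPARg placebo and 2.43 on PAX8PPARg RU486. Both RU486 arrays were thus higher in these controls, and the part of this in the RU486 differences was not tested. The WT RU486 array stood apart in its tissue markers: it was the lowest of the 4 for 12 of 12 luminal epithelial genes, including Krt7 (112 against 1990 to 4659 on the other arrays), and the highest for 13 of 13 macrophage genes. The PAX8PPARg placebo array stood apart as well, highest for 7 of 7 B and plasma cell, 6 of 6 adipocyte, 11 of 12 endothelial and 10 of 12 T and NK cell markers, and it enters every RU486 difference in PAX8PPARg. The tumour tissue of the WT RU486 pool thus had low levels of the epithelial markers of its labelled tissue. Every comparison that uses the WT RU486 array carries this difference.

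The chymases and the carboxypeptidase were highest on the WT RU486 array and lowest on the PAX8PPARg RU486 array. Cma1, an alpha-chymase also named Mcpt5, had signals of 137.2 on WT placebo, 466.4 on WT RU486, 177.5 on PAX8PPARg placebo and 85.0 on PAX8PPARg RU486. Its difference for RU486 was 1.66 in WT and -0.80 in PAX8PPARg. Mcpt4, the counterpart in function of human chymase, read 114.3, 228.6, 101.7 and 52.5 in the same order of arrays. This was a smaller step in the same order of RU486 arrays, 0.91 in WT, under the 2-fold limit, and -0.65 in PAX8PPARg. Cpa3, the carboxypeptidase that mast cells keep beside the chymases, read 93.7, 337.2, 102.4 and 42.2, with differences of 1.69 and -0.89. For all 3 genes the placebo arrays of the genotypes lay close together, at 0.15 for Cma1, -0.34 for Mcpt4 and -0.08 for Cpa3 (PAX8PPARg minus WT), and the last turned to 0.11 without centring. Under RU486 the same contrast was -2.31, -1.89 and -2.66.

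The RefSeq table of promoter windows, each running from 250 bases before to 50 bases after a gene's start, held 7 of the 9 genes, in 8 windows. Those of Cma1, Mcpt4, Cpa3 and Fcer1a are printed because these genes were highest in the WT RU486 pool and above the background range there. Capitals mark matches on either strand to a core recognised by GATA factors, either as AGATAA and its form ending in G instead, which is AGATAG, or as TGATAA and, likewise with a final G, the form TGATAG. They also mark an E-box read by MITF, another mast cell transcription factor, spelled CATGTG or, as a palindrome, spelled CACGTG. The strand printed is that of the gene, 5′ to 3′.
Cma1, GRCm38.p6 chr14:55944626-55944925, minus strand: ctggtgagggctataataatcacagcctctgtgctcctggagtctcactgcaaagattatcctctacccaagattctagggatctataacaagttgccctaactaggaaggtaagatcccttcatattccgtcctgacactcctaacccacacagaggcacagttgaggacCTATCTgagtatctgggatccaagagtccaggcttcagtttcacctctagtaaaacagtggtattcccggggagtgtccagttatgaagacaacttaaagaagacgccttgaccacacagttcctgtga
Mcpt4, GRCm38.p6 chr14:56062261-56062560, minus strand: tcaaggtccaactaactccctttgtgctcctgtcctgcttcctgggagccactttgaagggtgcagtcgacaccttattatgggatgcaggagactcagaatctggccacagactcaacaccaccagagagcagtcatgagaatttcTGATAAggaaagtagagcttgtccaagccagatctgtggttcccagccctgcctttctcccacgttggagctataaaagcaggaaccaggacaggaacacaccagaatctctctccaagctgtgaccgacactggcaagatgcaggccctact
Cpa3, GRCm38.p6 chr3:20242132-20242431, minus strand: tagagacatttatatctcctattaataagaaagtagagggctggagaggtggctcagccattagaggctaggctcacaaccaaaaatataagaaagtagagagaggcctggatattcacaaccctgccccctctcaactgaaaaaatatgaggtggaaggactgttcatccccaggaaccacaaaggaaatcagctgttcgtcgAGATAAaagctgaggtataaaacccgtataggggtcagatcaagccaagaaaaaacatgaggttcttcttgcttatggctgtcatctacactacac
Fcer1a, GRCm38.p6 chr1:173227180-173227479, minus strand: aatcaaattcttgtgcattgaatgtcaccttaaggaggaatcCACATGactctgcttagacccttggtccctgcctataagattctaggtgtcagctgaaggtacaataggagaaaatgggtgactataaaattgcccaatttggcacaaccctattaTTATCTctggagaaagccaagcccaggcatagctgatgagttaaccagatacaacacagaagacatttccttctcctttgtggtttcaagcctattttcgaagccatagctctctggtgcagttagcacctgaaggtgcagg

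A GATA hexamer occurred once in each of the 4 printed windows, starting at base -79 from the start site in Cma1, -103 in Mcpt4, -46 in Cpa3 and -92 in Fcer1a. Hdc held 1 such hexamer, Ms4a2 held 3, and neither window of Gata2 held one, so that 6 of the 7 genes had a match. Of all 32851 windows in the table, 29.8% had at least 1 match and 7.77% at least 2. The E-box occurred in Fcer1a only, at -208, and in 20.4% of all windows. A match is a description of the letters and not a binding site. Expression data do not show which factor was bound.

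The tryptases had the largest differences of the 9 genes in WT. Tpsab1, also named Mcpt7, read 46.3 on WT placebo and 660.5 on WT RU486, a difference of 3.44. On the PAX8PPARg arrays it read 3.2 under placebo and 4.2 under RU486, both within the background range. Tpsab1 was at least 2.9-fold higher in WT than in PAX8PPARg under placebo and at least 13.7-fold higher under RU486, on the log2(signal + 16) scale and against the limit of each PAX8PPARg array. With all signals raised to at least 35.3, the top of the background range on any array, its PAX8PPARg minus WT difference was -0.47 under placebo and -3.78 under RU486. Tpsb2, also named Mcpt6 and the tryptase that is stored with heparin, read 78.9, 524.9, 86.7 and 71.9 in the order used above. Its 3 lower arrays lay between 71.9 and 86.7, and the WT RU486 array was 6.05 times the next highest. The RU486 difference was 2.51 in WT and -0.09 in PAX8PPARg, a value so near 0 that its sign turned when probe sets were averaged.

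A second Tpsb2 probe set was dim, at 7.5, 27.5, 17.0 and 20.5, within the background range on WT placebo and on PAX8PPARg RU486. It had the same highest array, and its difference in WT was 0.89. Tpsab1 and Tpsb2 are neighbours of 1 gene family: in the RefSeq gene table of the C57BL/6J assembly GRCm38.p6 they lie side by side, and Tpsab1 is entered there as a transcribed pseudogene. The mice here were FVB, and how far the probes of one gene also bind transcripts of the other was not tested, so the division of signal between the tryptases is uncertain. They nevertheless parted on the PAX8PPARg placebo array, where Tpsb2 was near its WT placebo level (86.7 against 78.9) and Tpsab1 was within the background range.

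**Figure D1:**
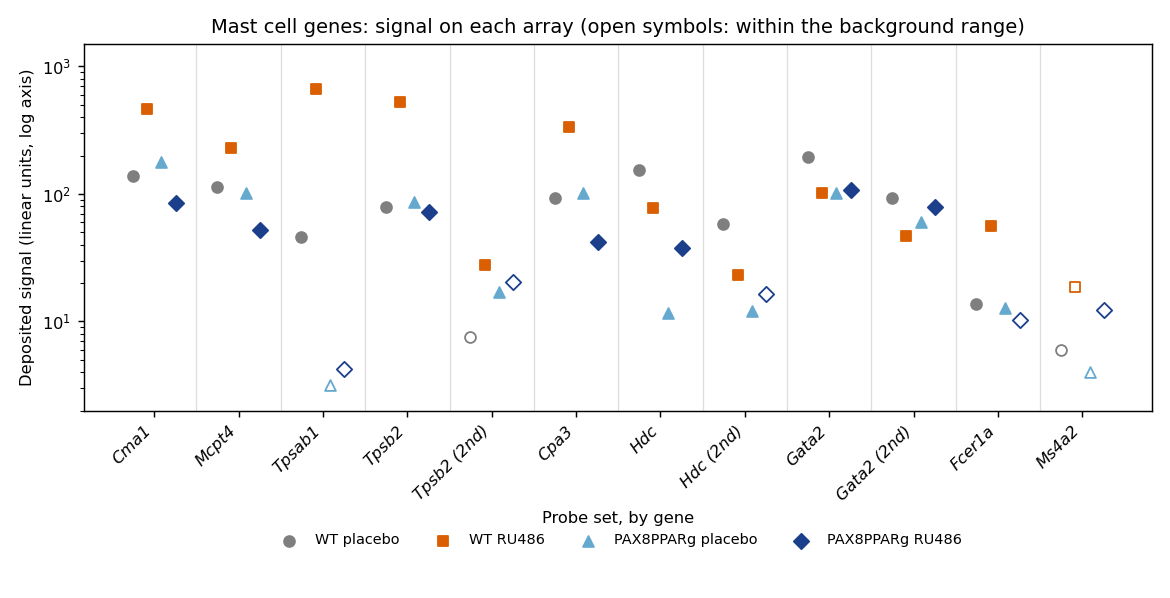
Deposited signal on a log axis for each of the 12 probe sets (x axis, by gene; 2nd marks the dimmer probe set of a gene) on the 4 arrays, 1 symbol per array, with open symbols for signals within the background range. The WT RU486 squares lie above the other symbols for both chymases, both tryptases, Cpa3 and Fcer1a, whereas for Hdc and Gata2 the WT placebo circles are the highest.

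The alpha and beta subunits of the high-affinity IgE receptor were dim. Fcer1a, the alpha subunit that binds IgE, read 13.7 on WT placebo, 55.8 on WT RU486, 12.7 on PAX8PPARg placebo and 10.2 on PAX8PPARg RU486, the last within the background range. WT RU486 was 4.07 times the next array, and the difference in WT was 1.27. With signals floored at 35.3 as for Tpsab1, it was 0.49. Ms4a2, the beta subunit that amplifies the receptor's signal, read 6.0, 18.5, 4.0 and 12.4 and did not exceed the background range on any array. Its differences of 0.65 in WT and 0.64 in PAX8PPARg therefore carry no direction.

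The enzyme of histamine synthesis and the lineage factor had another order of arrays. Hdc, histidine decarboxylase, read 153.0 on WT placebo, 77.5 on WT RU486, 11.6 on PAX8PPARg placebo and 38.0 on PAX8PPARg RU486. It was highest under placebo in WT and lowest under placebo in PAX8PPARg, a genotype difference of -2.81. That value was -1.91 with signals floored at 35.3, -3.82 with a pseudocount of 1, -1.67 with a pseudocount of 64 and -1.58 on the second probe set. The RU486 difference of Hdc was -0.85 in WT and 1.10 in PAX8PPARg, and the latter was 0.21 with signals floored at 35.3. The second Hdc probe set read 57.7, 23.0, 12.1 and 16.5, with the same highest and lowest array and RU486 differences of -0.92 and 0.34. The names of both Hdc probe sets carry the suffix that this maker gives to probes shared by several transcripts. Gata2, a transcription factor needed by mast cells and their progenitors and also made by endothelium, read 194.3, 102.3, 102.0 and 107.3. Its WT placebo array was the highest and the other 3 were alike, and its RU486 difference in WT was -0.83. The second Gata2 probe set read 92.7, 46.7, 60.7 and 79.1, again highest on WT placebo, with a difference of -0.79 in WT.

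In WT, 5 of the 9 genes were at least 2-fold higher under RU486 (Cma1, Tpsab1, Tpsb2, Cpa3 and Fcer1a), against 7.46% of all 12393 genes. None of the 9 was at least 2-fold lower, against 8.88% of all genes. The median difference of the 9 was 1.27, and that of all genes 0.01. Among all genes, 99.9% had a smaller difference than Tpsab1, 99.6% than Tpsb2, 97.8% than Cpa3, 97.7% than Cma1, 95.6% than Fcer1a and 91.1% than Mcpt4. Mcpt4 at 0.91 lay just outside the 2-fold limit, and Fcer1a at 1.27 was the nearest inside it. At the other end, 11.0% of genes had a lower value than Hdc and 11.5% a lower value than Gata2.

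In PAX8PPARg the same genes did not stand higher under RU486. Hdc alone was at least 2-fold higher, against 10.6% of all genes, and its second probe set was not. None was at least 2-fold lower, against 7.08%. Without centring, Cpa3 also passed the limit, at -1.02, and Hdc did not, at 0.97. The median of the 9 was 0.00, beside 0.13 for all genes, and it was -0.13 beside 0.00 without centring. Mcpt4, Cma1 and Cpa3 were the lowest of the 9, and 12.3%, 9.64% and 8.30% of all genes lay below them.

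Between the genotypes the 9 genes differed mostly under RU486. Under placebo none was at least 2-fold higher in PAX8PPARg, against 4.34% of all genes, and 3 were at least 2-fold lower, against 5.49%: Tpsab1, Hdc and Gata2. Of these, Tpsab1 was under 2-fold with floored signals (-0.47) and with a pseudocount of 64 (-0.87), and Gata2 without centring (-0.83), with averaged probe sets (-0.86) and with a pseudocount of 64 (-0.79). Under RU486 none was at least 2-fold higher, against 10.9%, and 6 were at least 2-fold lower, against 10.2%, namely Cma1, Mcpt4, Tpsab1, Tpsb2, Cpa3 and Fcer1a. Fcer1a, within the background range in PAX8PPARg, was at -1.51, and at -0.54 with signals floored at that range. The median of the 9 was -0.33 under placebo and -1.89 under RU486, and that of all genes -0.15 and 0.02. The RU486 contrast in WT and the genotype contrast under RU486 share the WT RU486 array, so the latter is no separate evidence. On that array 7 of the 9 genes had their highest signal, against 27.6% of all genes, and 1 of the 7 is Ms4a2, which was within the background range throughout.

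The RU486 difference had opposite signs in the genotypes for 6 of the 9 genes, and for 47.6% of all genes. Taken as PAX8PPARg minus WT, the difference of the RU486 differences was -3.24 for Tpsab1, -2.60 for Tpsb2, -2.58 for Cpa3, -2.46 for Cma1, -1.56 for Mcpt4 and -1.27 for Fcer1a, and 1.96 for Hdc and 1.03 for Gata2. The value of Tpsab1 rests on PAX8PPARg signals within the background range. The median of the 9 was -1.56, beside 0.15 for all genes.

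**Figure D2:**
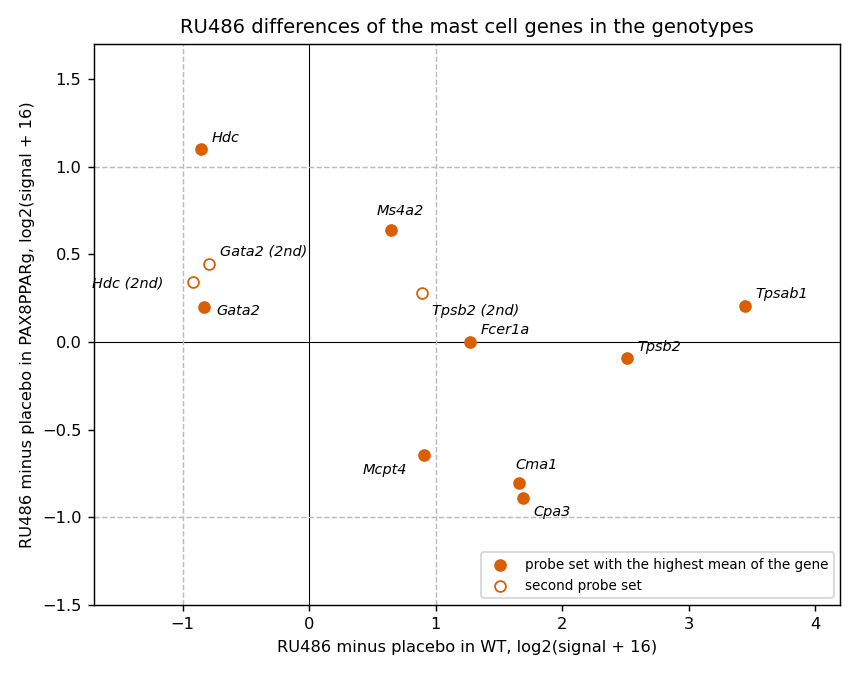
RU486 minus placebo in WT (x axis) against the same difference in PAX8PPARg (y axis), both in log2(signal + 16), 1 point per probe set, with open points for the dimmer probe set of a gene and dashed lines at 2-fold. Tpsab1, Tpsb2, Cpa3, Cma1 and Fcer1a lie right of 1 in WT, at 3.44, 2.51, 1.69, 1.66 and 1.27, and Hdc and Gata2 lie left of 0.

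An additive model of genotype and treatment over the 4 arrays, fitted with limma, is the test that the design allows. It leaves 1 residual degree of freedom, into which the difference of the RU486 differences enters. The errors given below are therefore no spread between mice, and the RU486 difference within WT was not tested. With genes restricted to those at or above the median mean level, none of the 9 was tested, since all of them lay below it. Without that filter limma called 0 of 9 genes, and 0% of all 12393 genes, for the treatment effect, and 0 of 9 and 0% for the genotype effect. At an unadjusted p under 0.05 it found 608 of all genes and 0 of the 9 for treatment, and 457 of all genes and 2 of the 9 for genotype. These 2 were Tpsab1, with a genotype difference of -3.51 ± 0.91 (SE; limma adjusted p = 0.982), and Hdc, at -1.83 ± 0.60 (limma adjusted p = 0.982). The size and error for Tpsab1 depend on the pseudocount, since both PAX8PPARg signals were within the background range. For treatment Tpsb2 had 1.21 ± 0.76 (limma adjusted p = 0.889).

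Other genes of mast cells lay on both sides of 0. Of 13 measured, 5 exceeded 2-fold upwards under RU486 in WT and 2 downwards, with a median of -0.16. Kit, the receptor of stem cell factor, read 516.1 on WT placebo, 95.1 on WT RU486, 597.7 on PAX8PPARg placebo and 558.9 on PAX8PPARg RU486, which is lowest where the proteases were highest. Kit is also made by mammary epithelium, whose markers were lowest on that array too, and the part of either cell in its value was not tested. Slc6a4, the serotonin transporter, read 31.2, 207.7, 9.9 and 7.3 in the same order, the last within the background range, and was thus highest where the tryptases were. Tph1, which makes serotonin, read 37.9, 31.1, 379.2 and 33.7, highest on PAX8PPARg placebo. Mcpt1, a protease of mucosal mast cells, read 76.9 on WT placebo and was within the background range on the other arrays (0.4, 1.9 and 33.0). The genes Mcpt2, Mitf and Tpsg1 were picked after their values were seen. Mcpt2, another protease of the list, read 48.1, 159.6, 0.9 and 11.5, the PAX8PPARg pair within the background range. Unlike Mcpt1, it was highest on WT RU486. Mitf was 1.37 higher in WT. Tpsg1, a membrane tryptase, read 39.7 on WT RU486 and was above the background range there and on PAX8PPARg placebo (10.2) only.

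Of 15 measured genes that pass on the IgE receptor's signal, 12 were highest on WT RU486. In this list 9 were at least 2-fold higher in WT under RU486 and none lower, with a median of 1.57, while in PAX8PPARg none was higher and 1 lower, with a median of -0.20. Fcer1g, the gamma subunit, which other Fc receptors of myeloid cells share, read 534.7, 2443.3, 573.6 and 787.5, highest on WT RU486. The kinase genes Syk and Btk had WT differences of 1.98 and 2.56, beside PAX8PPARg differences of -0.86 and -0.90, the same signs as Cma1 and Cpa3. Lat, an adaptor shared with T cells, was instead highest on PAX8PPARg placebo, at 304.6 against 35.6 to 58.1 on the other arrays. Macrophages express most of this list, and the macrophage genes had a median of 2.08 in WT and -0.04 in PAX8PPARg.

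Among 14 growth and recruitment factors, 3 were at least 2-fold higher under RU486 in WT and none lower. In PAX8PPARg 4 were higher and 2 lower. Of these 4, Il6, Il9 and Il13, picked after their values were seen, did not rise above background with placebo or with RU486. Their differences in PAX8PPARg therefore carry no direction. Tslp alone of the 4 was above background with either pellet in that genotype. Kitl, the gene of stem cell factor, picked after its values were seen, was above background on every array and differed by 0.42 in WT and 0.02 in PAX8PPARg. Ccl2, a monocyte and mast cell attractant, read 274.0, 1502.6, 98.1 and 152.0 in the usual order, and Tslp, an epithelial cytokine, read 6.6, 69.6, 25.4 and 70.9, the first within the background range. Cxcl12 and Ccl5 were highest on PAX8PPARg placebo, at 1584.0 and 1525.1, and differed there by -2.78 and -3.15 under RU486. Il33, an alarmin that mast cells respond to, also picked after its values were seen, read 392.0, 1476.8, 270.0 and 334.7.

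Markers of other cells were set beside the mast cell genes, as whole lists. In WT the summed signal of the 9 genes was 2.95 times as high under RU486 as under placebo, that of 13 macrophage markers 3.60 times, that of 9 fibroblast and stroma markers 1.11 times and that of 12 luminal markers 0.154 times. In PAX8PPARg the same ratios were 0.704, 1.02, 1.30 and 1.09. For the B and plasma cell list the ratio was 2.53 in WT and 0.068 in PAX8PPARg, and for the T and NK cell list 0.715 and 0.230. For adipocyte markers it was 0.402 and 0.159, for endothelial markers 0.746 and 0.475, for basal and squamous markers 0.053 and 3.79, and for neutrophil markers 0.266 and 6.00. The median log2 difference of the fibroblast list had the other sign than its sum, at -0.69 in WT and -0.78 in PAX8PPARg. For the T and NK cell list this held in WT, where the median was 0.16. There 1 gene of that list was at least 2-fold higher and 2 were lower, Gzma at -3.58 and Gzmb at -3.39. In PAX8PPARg the medians of the 9 genes (0.00) and of the macrophage list (-0.04) were near 0. All 13 macrophage markers were at least 2-fold higher in WT, as were Cma1, Tpsab1, Tpsb2 and Cpa3, and the part of a changed tissue makeup in the result was not tested. Hdc had the same signs as the medians of 3 lists: neutrophil (-0.75 in WT and 1.80 in PAX8PPARg), basal and squamous (-3.48 and 2.44) and luminal (-3.34 and 0.50). Within the neutrophil list S100a9 read 2365.6, 355.7, 394.1 and 2516.6, whereas Mmp9 was higher under RU486 in both genotypes, by 0.84 and 3.27. The part of these cells in the Hdc values was not tested. Gata2 had its highest signal on WT placebo, whereas 11 of 12 endothelial markers had theirs on PAX8PPARg placebo.

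**Figure D3:**
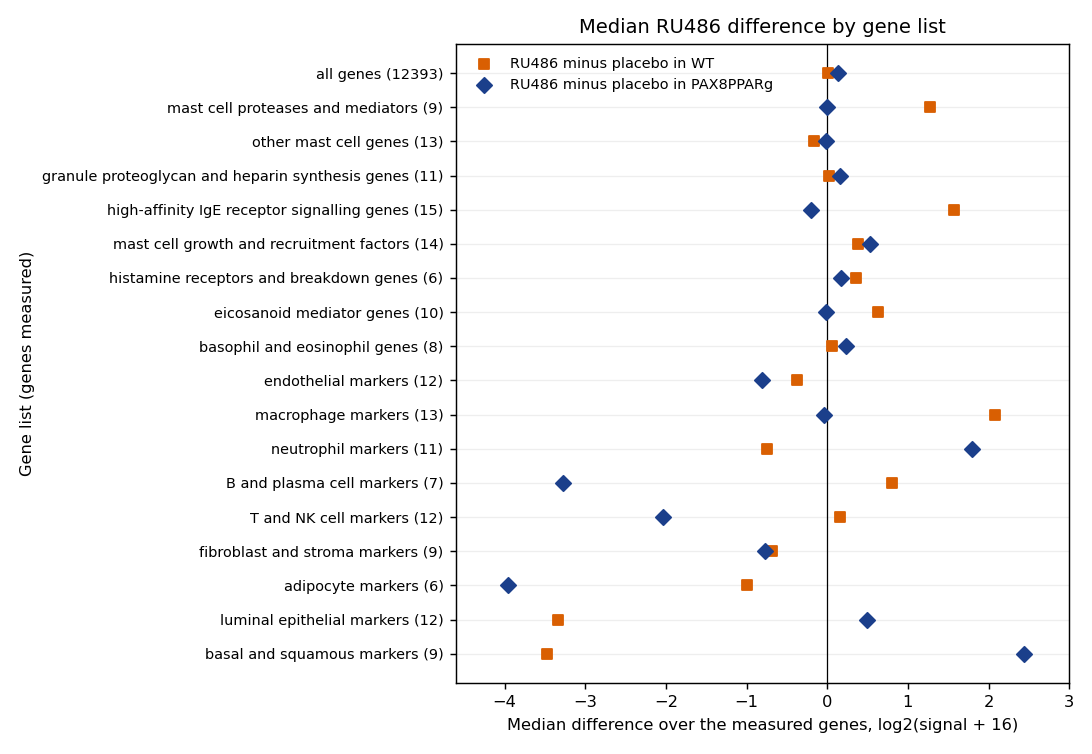
Median RU486 minus placebo difference in log2(signal + 16) over the measured genes of each list (y axis, with their number), squares for WT and diamonds for PAX8PPARg. The mast cell genes (1.27 and 0.00), the IgE receptor signalling genes (1.57 and -0.20) and the macrophage markers (2.08 and -0.04) lie right of 0 in WT and near 0 in PAX8PPARg.

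Genes with the most similar course over the 4 arrays were sought among those at or above the median level, by the root mean square distance of log2 profiles after each gene's mean was removed. Nearest to Cma1 were Sla (0.03), Dst (0.07), Tnfrsf1b (0.07), Evi2a (0.07) and Ccdc88a (0.08). Nearest to Cpa3 were Hfe (0.05), Itsn1 (0.08), Nckap1l (0.12), Gda (0.12) and Tnfrsf1b (0.13). Nearest to Tpsb2 were C1qc (0.04), Ncf4 (0.13), Pld4 (0.16), Pirb (0.17) and Mrc1 (0.19), of which C1qc and Mrc1 are on the macrophage list. Cma1 and Cpa3 were at 0.15 from each other, with 16 genes nearer to Cma1 and 7 nearer to Cpa3, and Tpsb2 was at 0.42 from Cma1. Mcpt4 was at 0.27 and Fcer1a at 0.33 from Cma1, whereas Hdc was at 1.17 and Gata2 at 0.99. With 4 arrays a small distance describes these pools alone.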

How the data were processed

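The values were the deposited probe set intensity signals of 4 Affymetrix arrays, on a linear scale. The authors had scaled them to 1 trimmed mean, as the values show (500.1 to 500.2 with 2% trimmed at each end), and their software is not given in the sources used. Biotin-labelled cRNA came from pooled RNA, per the labels' protocols. No detection calls were used here. Of 22690 probe sets, 64 were controls, 20380 had 1 symbol, 691 several and 1555 none, by the platform's annotation.

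Signals were transformed as log2(signal + 16), centred on the median of the non-control probe sets, and compared between arrays with no p-value. Genes were counted at 2-fold. limma (lmFit, eBayes, Benjamini-Hochberg at 0.05) fitted genotype + treatment. The steps were run on simulated data with a treatment effect alike in both genotypes. That run does not show what the fit could call here. The 9 genes and all lists were chosen with earlier results of these data known. From each list at most 4 genes were named, those with the largest RU486 difference in either genotype among genes 2-fold different in any comparison and above background on an array compared, and for 3 members the 5 nearest genes. Mcpt2, Mitf, Tpsg1, Kitl, Il33, Il6, Il9 and Il13 fall outside this rule and were picked after their values were seen. Of the tissue marker lists, some of those named genes are printed. Alternatives were no centring, quantile normalization, pseudocounts of 1 and 64, floored signals, averaged probe sets, and the filter on level. Computation ran in Python 3.11.15 with numpy 2.4.6 and, for limma 3.58.1, in R 4.3.3.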

Additional observations from a re-analysis of the deposited data

Results flagged for a closer look

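For 6 of the 9 genes the RU486 difference ran in opposite directions in the 2 genotypes, as it did for 47.6% of all genes. Each group is 1 pool, and this difference was not tested. As PAX8PPARg minus WT, the difference of the RU486 differences (log2) was -2.46 for Cma1, -1.56 for Mcpt4, -2.60 for Tpsb2 and -2.58 for Cpa3, all higher under RU486 in WT and lower in PAX8PPARg. The PAX8PPARg side of Tpsb2 was -0.09 and turned to 0.09 with averaged probe sets. The difference of differences was 1.96 for Hdc and 1.03 for Gata2, both lower under RU486 in WT and higher in PAX8PPARg.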

How the results depend on the processing

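In WT the count of genes at least 2-fold higher under RU486 was 4 to 6 of 9 under the alternatives, beside 5, and the median difference was 1.76 with a pseudocount of 1 and 0.71 with 64. Between genotypes under RU486 the median was -2.40 and -1.37 with those pseudocounts, and 5 to 7 genes were at least 2-fold lower. Under placebo 1 gene was at least 2-fold lower with a pseudocount of 64. In PAX8PPARg the count at least 2-fold higher under RU486 was 2 with a pseudocount of 1 and 0 under each other alternative, and 1 gene was at least 2-fold lower without centring, with quantile normalization and with a pseudocount of 1. Without centring the split of all genes in PAX8PPARg was 1028 higher and 1080 lower in place of 1316 and 877 (864 and 1020 with quantile normalization), with a median of 0.00 in place of 0.13. For genotype under placebo it was 744 and 482 in place of 538 and 680, with a median of 0.04 in place of -0.15. limma could test all 9 genes only without the filter on level and 1 with averaged probe sets, and called none in either. Of the recomputed counts and medians 78 stayed within the limits used (1.5 times for a count, the SD between probe sets of a gene for a median), 14 did not, and no value of at least 2-fold changed sign. The median of the 9 for RU486 in PAX8PPARg, 0.00, was -0.13 without centring, -0.15 with quantile normalization and -0.12 with a pseudocount of 1. Counts restricted to members at or above the median level could not be formed, since none of the 9 was there. No paired analysis was possible because each group has 1 array.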

Other observations

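Of 10 measured genes of lipid mediators made by mast cells and macrophages, 6 were highest in the WT RU486 pool. In WT, 4 were at least 2-fold higher under RU486 and none lower, with a median of 0.63. In PAX8PPARg 2 were at least 2-fold higher and none lower, with a median of -0.01. Hpgds, which makes prostaglandin D, read 246.8 on WT placebo, 1130.3 on WT RU486, 204.2 on PAX8PPARg placebo and 155.2 on PAX8PPARg RU486. Alox5ap, needed for leukotriene synthesis, read 410.3, 1533.2, 402.5 and 290.9, and the leukotriene receptor gene Cysltr1 read 109.6, 636.9, 119.6 and 118.8. Ptgs2, inducible cyclooxygenase, followed another order, at 566.5, 1066.7, 9.3 and 270.9.

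Of 11 genes of granule proteoglycan and heparin synthesis, 1 was at least 2-fold higher and 1 lower in WT. Srgn, the core protein of serglycin, differed by 0.89 in WT, Ctsc, the activator of granule proteases, by 1.35, B4galt7, an enzyme of the linker of heparin chains, by 0.96 and Hs6st1, a heparan sulfotransferase, by -1.31. Of 6 histamine receptor and breakdown genes, Hrh1 and Hrh2 were the only ones at least 2-fold higher in WT, at 1.02 and 1.03. In PAX8PPARg they differed by 0.40 and 1.02, with Hrh1 within the background range under RU486. Hnmt, which inactivates histamine, differed by 0.60 in WT and -1.44 in PAX8PPARg, where its RU486 signal of 15.3 was within the background range. Aoc1, the other breakdown enzyme, was above that range on PAX8PPARg placebo alone, at 33.6.

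Of 8 basophil and eosinophil genes, 4 exceeded the background range on at least 1 array. Mcpt8, a basophil protease, read 56.0, 12.2, 1.8 and 65.6 in the same order of arrays, the middle pair within the background range. It was thus not high where the mast cell proteases were. Il3ra, a growth factor receptor subunit, read 41.9, 67.9, 29.7 and 98.5, and Siglecf, an eosinophil lectin, read 34.0, 24.1, 7.8 and 1.5, the PAX8PPARg pair within the background range.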
